A study of Homo sapiens with 4 samples.

Results

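H19 is an imprinted long noncoding RNA on the short arm of chromosome 11, and it was examined here together with 9 neighbours in or beside the same 11p15 region: IGF2, KCNQ1, KCNQ1OT1, CDKN1C, PHLDA2, TSSC4, MRPL23, CTSD and LSP1. The members were chosen by symbol: every row of the value table whose platform annotation includes 1 of these 10 names, alone or with others, was taken. This gave 11 rows for 9 of the 10 genes, out of 21214 rows with a gene symbol, and 7 of the 11 rows carry a member symbol alone. KCNQ1OT1 was not analysed here, since no row names it. Each row is a transcript cluster, a set of probes that the array design assigns to 1 transcript or group of transcripts.

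The RNA came from OVCAR-3, a long-established human line grown from an ovarian carcinoma, and was read on 4 one-colour Affymetrix arrays. The vector-only group is OVCAR-3 cells that received vectors lacking the H1.3 insert (2 arrays), and the H1.3 group is OVCAR-3 cells described as overexpressing human H1.3, a linker histone (2 arrays, titled H1.3(H), where the (H) is not explained). Both groups were kept in RPMI-1640 medium with fetal bovine serum, penicillin and streptomycin. The labels call the replicates biological but do not say whether they were separate transfections, pools or single clones. The p-values therefore cover only the spread among these 4 arrays, part of which may be technical. The question of the series was which transcripts change when H1.3 is raised in these cells.

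The 11p15 region holds a pair of imprinted domains, in which 1 parental copy of a gene is normally silent. In the first, H19 is transcribed from the maternal copy and IGF2, a fetal growth factor, from the paternal copy. A control region between them binds the insulator protein CTCF on the maternal copy, where it is unmethylated, and decides which gene reaches shared enhancers. In the second, the antisense RNA KCNQ1OT1 is made from the paternal copy inside KCNQ1 and silences neighbours such as CDKN1C and PHLDA2 there. Linker histones such as H1.3 bind the nucleosome where DNA enters and leaves it and help to pack chromatin. H19 is abundant in fetal tissue, is low in most adult tissues and is switched on again in many tumours. Its first exon is also the precursor of the microRNA miR-675.

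The sequences below belong to H19, which shares the row of the main result with another gene. They are both mature arms cut from the H19 transcript, and the stretch of DNA around the outermost H19 start. They come from NCBI RefSeq, build GRCh38.p14, on the minus strand. In the microRNAs the capitals mark the seed, bases 2 to 8, which pairs with target transcripts. The arms lie at chr11:1996800-1996822 (5p) and chr11:1996768-1996787 (3p).
hsa-miR-675-5p: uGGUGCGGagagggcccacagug
hsa-miR-675-3p: cUGUAUGCccucaccgcuca

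The 2 seeds differ from each other. Among 2370 mature human microRNAs of the RefSeq table, 1 other (hsa-miR-4466) has the seed of the 5p arm and 0 others have that of the 3p arm. MIR675 is named by 0 rows of the value table, so no level of the microRNA is given here.

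The DNA window runs from 250 bases before to 50 bases after the outermost H19 start, at chr11:2001217-2001516, with each CG dinucleotide, the site of DNA methylation, in capitals.
H19 start: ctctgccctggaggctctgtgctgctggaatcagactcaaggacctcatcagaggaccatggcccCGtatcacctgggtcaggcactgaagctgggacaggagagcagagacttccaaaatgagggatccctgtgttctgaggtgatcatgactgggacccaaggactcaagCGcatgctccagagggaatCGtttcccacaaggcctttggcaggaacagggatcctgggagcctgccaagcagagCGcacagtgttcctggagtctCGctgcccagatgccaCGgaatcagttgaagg

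This H19 window holds 6 CG dinucleotides and 57.7% G or C, and 66.3% of the 35116 windows of that length in the table hold at least as many. By contrast, the CTSD window (chr11:1763878-1764177, minus strand) holds 43 and the TSSC4 window (chr11:2400500-2400799, plus strand) holds 32, counts that 4.98% and 18.9% of windows reach. Windows were found for 3 of the 10 members. The H19 window has 0 matches on either strand to TATAAA, present in 11.5% of all windows, and 0 to GGGCGG, present in 45%. RefSeq lists 7 transcripts for H19, and the miR-675 hairpin lies 4385 bases downstream of this window, so the window need not be the start in use, which was not measured. No level of DNA methylation was measured either.

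On the whole set of arrays, Pearson's r across the named rows was 0.993 for replicates of either group and 0.987 to 0.991 for arrays of different groups, and the median of the named rows was 6.84 on each array. Values are RMA levels on the log2 scale, so a difference of 1 is a 2-fold change, and differences between groups are taken within a row because probes differ in brightness. The median of 6.84 serves only as a rough mark of dim rows and does not rank genes by abundance. The gene encoding H1.3 itself, H1-3, measured 8.65 and 7.88 with vector alone and 7.47 and 7.69 in the H1.3 arrays, which is -0.69 ± 0.24 (SE) apart (adjusted p 0.319). The transcript that the labels say is overexpressed was thus not measured higher, and nothing here tells whether the vector carries the sequence its probes read. Directions below refer to the arrays labelled H1.3. Of 14 ovarian carcinoma markers, 13 lay above the array median level, among them PAX8, MUC16 and EPCAM, named for their role. FOLR1, the folate receptor alpha, was the only one of these markers to pass the test, falling from 6.95 and 6.62 to 5.62 and 5.43 (adjusted p 0.0291). Of the markers of other cell types, 1 of 9 for fibroblasts, 0 of 9 for leukocytes and 0 of 6 for endothelium lay above that level. Their summed levels (log2) ran from 8.80 to 8.97, 8.67 to 8.78 and 8.04 to 8.15 with vector alone and from 8.87 to 8.98, 8.68 to 8.85 and 7.89 to 8.01 in the H1.3 arrays; none of these markers passed limma, and 0 had an unadjusted p under 0.05. The smallest adjusted p were 0.570 and 0.713 for the fibroblast markers PDGFRB and FAP, 0.516 and 0.673 for the leukocyte markers PTPRC and LYZ, and 0.539 and 0.763 for the endothelial markers KDR and ERG.

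H19 was named by the only member row that passed the test, and that row fell. The row annotated to H19 and RPS12, a protein of the small ribosomal subunit, measured 10.96 and 10.09 with vector alone and 7.34 and 7.35 in the H1.3 arrays. Both vector-only arrays were high, both H1.3 arrays were low, and the groups did not overlap. The group means were 10.525 ± 0.615 and 7.345 ± 0.00707 (SD, n = 2 each), and the difference was -3.18 ± 0.26 (SE; 95% interval -3.78 to -2.58). That is a 9.06-fold lower level, with a limma adjusted p of 0.00956. Over the 4 pairings of an H1.3 array with a vector-only array the difference ran from -3.62 to -2.74. Among the 21214 rows it was the 2nd largest fall and the 3rd largest difference in either direction, and 8 rows had a smaller p. In all, 0.504% of the rows passed the test in either direction and 0.264% passed as lower.

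**Figure D1:**
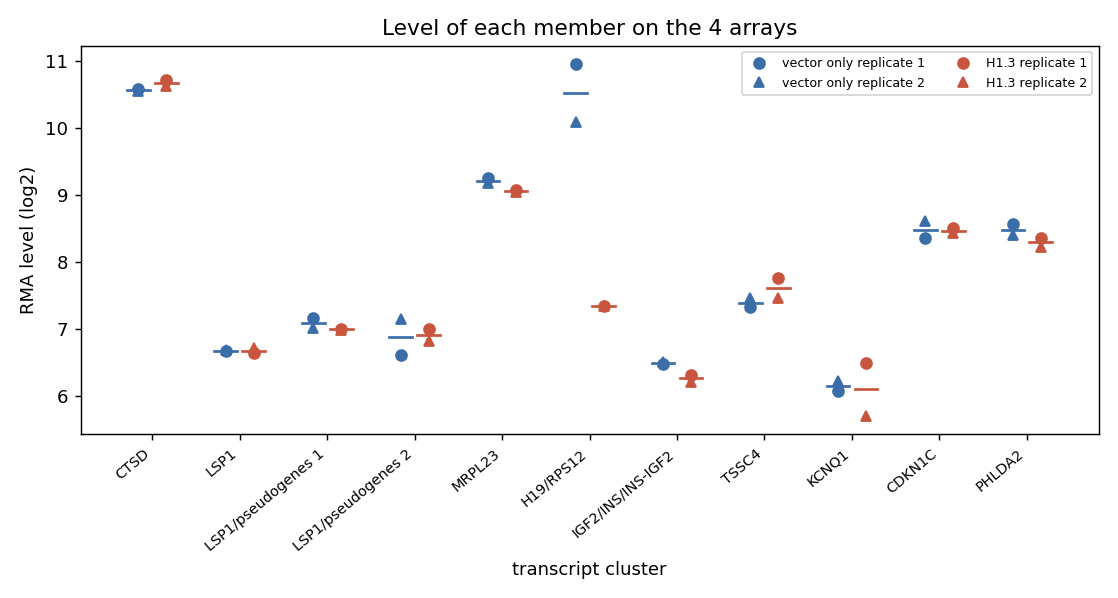
RMA level (log2, vertical axis) of the 11 member rows on each array, with the genes in chromosomal order from CTSD to PHLDA2. The 2 rows shared by LSP1 and its pseudogenes are drawn beside LSP1, whatever locus their probes read. Circles mark replicate 1, triangles replicate 2 and a line each group mean, and levels compare only within a row. The H19/RPS12 row drops from 10.96 and 10.09 in the vector-only arrays to 7.34 and 7.35 in the H1.3 arrays, whereas the differences of the other 10 rows lie between -0.23 and 0.22.

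The call rests on all 4 arrays. Without vector-only replicate 1 the difference was -2.745 (adjusted p 0.485), without vector-only replicate 2 it was -3.615 (0.370), without H1.3 replicate 1 it was -3.175 (0.742) and without H1.3 replicate 2 it was -3.185 (0.433), so the size was kept and the call was lost each time. No row of the whole table passed in those refits. The exact two-sided permutation test over the 4 arrays gave p = 0.333, the smallest that 6 arrangements allow. With the replicate number as a block the adjusted p was 0.117.

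The replicates of the H19 row spread unequally. The gap between the vector-only replicates was 0.87, against a median gap of 0.13 over all rows, and 0.933% of rows had a gap at least as wide. The gap between the H1.3 arrays was 0.01, and 5.71% of rows had a gap that small. H1-3 was likewise 0.77 higher in vector-only replicate 1 than in replicate 2. How many rows share this direction was not counted, and a link with H19 was not tested.

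The share of H19 in this row was examined through RPS12, which has 1 other row, shared with the small nucleolar RNA SNORA33. Of the 3 database sequences listed for the H19 row, 1 is also listed for that other row. It measured 9.54 and 9.34 with vector alone and 9.22 and 9.23 in the H1.3 arrays. The groups did not overlap, and the difference was -0.22 ± 0.12 (SE; 95% interval -0.51 to 0.08; adjusted p 0.584). Within each array, the H19 row minus this RPS12 row was 1.42 and 0.75 with vector alone and -1.88 in each H1.3 array, a change of -2.965. The permutation test of that change gave an exact p of 0.333, again the smallest possible. Which probes of the H19 row carry the fall was not tested, since probe values were not used.

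IGF2 shares its enhancers with H19 and is the nearest measured gene on the centromeric side. Its only row is also annotated to the insulin gene INS and the readthrough transcript INS-IGF2, so it cannot be given to IGF2 alone. It measured 6.48 and 6.51 with vector alone and 6.32 and 6.21 in the H1.3 arrays. Both H1.3 arrays were lower and the groups did not overlap, but the difference of -0.23 ± 0.12 (SE; 95% interval -0.50 to 0.04) did not pass (adjusted p 0.529). In all 4 arrays this row lay below the median level of 6.84; no detection call was used, so how far it stood above background is unknown. IGF2-AS, an antisense RNA of the same gene, differed by -0.05 (adjusted p 0.928).

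MRPL23, which encodes a protein of the large mitochondrial ribosomal subunit, is the nearest measured gene on the telomeric side of H19. Its levels were 9.25 and 9.18 with vector alone and 9.08 and 9.05 in the H1.3 arrays. The groups did not overlap, yet the difference was -0.15 ± 0.11 (SE; 95% interval -0.42 to 0.12; adjusted p 0.699). The nearest measured genes on both sides of H19 were thus each slightly lower without passing the test. On the scale of the H19 row their differences were small: within each array, the change of H19 relative to MRPL23 was -3.03 and relative to the IGF2 row -2.95 (exact permutation p = 0.333 for each).

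The second imprinted domain was represented by KCNQ1, CDKN1C and PHLDA2, and none of the 3 passed. KCNQ1, the pore-forming subunit of a voltage-gated potassium channel, measured 6.07 and 6.23 with vector alone and 6.50 and 5.70 in the H1.3 arrays. The H1.3 arrays lay on either side of the vector-only ones, a gap of 0.80 between replicates, and the difference of -0.05 ± 0.24 (SE; adjusted p 0.967) has the widest interval of the 10 member rows other than H19, -0.62 to 0.52. Its sign turned when either of 2 arrays was left out, to 0.03 without vector-only replicate 2 and to 0.35 without H1.3 replicate 2.

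CDKN1C encodes p57, a cyclin-dependent kinase inhibitor that restrains fetal growth. It measured 8.36 and 8.61 with vector alone and 8.51 and 8.43 in the H1.3 arrays, which lay inside the vector-only range. The difference was -0.01 ± 0.13 (SE; 95% interval -0.33 to 0.30; adjusted p 0.981). PHLDA2, a pleckstrin-homology protein that limits placental growth, measured 8.56 and 8.40 against 8.36 and 8.23. Its groups did not overlap, and the difference was -0.19 ± 0.12 (SE; 95% interval -0.48 to 0.11; adjusted p 0.653). The 95% intervals reached down to -0.62 for KCNQ1, -0.33 for CDKN1C and -0.48 for PHLDA2, whereas the upper bound of the H19 interval is -2.58. KCNQ1 lay below the median level of 6.84 on every array. No detection call was used, so how far KCNQ1 stood above background, and how large a fall its row could show, is unknown.

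TSSC4, a protein of spliceosome assembly, lies between the 2 imprinted domains and was the member with the highest difference. It measured 7.33 and 7.46 with vector alone and 7.76 and 7.47 in the H1.3 arrays. H1.3 replicate 2 was only 0.01 above the higher vector-only array, and the difference of 0.22 ± 0.14 (SE; 95% interval -0.11 to 0.55) did not pass (adjusted p 0.631).

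Beyond MRPL23 on the telomeric side, CTSD and LSP1 also did not pass. CTSD encodes the lysosomal protease cathepsin D, and measured 10.58 and 10.55 with vector alone and 10.72 and 10.63 in the H1.3 arrays. Both H1.3 arrays were higher without overlap, by 0.11 ± 0.12 (SE; 95% interval -0.16 to 0.38; adjusted p 0.795). LSP1, an actin-binding protein best known from leukocytes, has 3 rows. The row of its own measured 6.67 and 6.69 against 6.64 and 6.72, a difference of 0.00 (95% interval -0.27 to 0.27). The other 2 rows are shared with LSP1P4, LSP1P5 and LINC02802, which cannot be told apart from LSP1 there, so they need not read 11p15. These 2 rows differed by -0.09 and 0.03, with adjusted p of 0.847 and 0.980.

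Counted together, 1 of the 11 member rows passed, 0.504% being the share over all rows tested. Of the other 10 rows, 0 passed limma and 0 had an unadjusted p under 0.05. Over all 21214 rows tested, 2450 had an unadjusted limma p under 0.05. The smallest difference that passed anywhere was 0.82 in size, so a missing call does not show that a row was unchanged. The differences of the other 10 member rows ran from -0.23 to 0.22 with a median of -0.03. The median of all rows tested was 0.02. The intervals of these 10 rows reached no lower than -0.62 and no higher than 0.55. The groups did not overlap for 7 of the 11 rows, that is 63.6% of them, against 40.6% of all rows. Of the rows other than H19, 7 lay above the median level and 3 below it.

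The wider 11p15 imprinted domain was read from a list of 20 genes, of which 19 were found on 18 rows. Besides H19 none passed. With the H19 row counted, 6 rows differed upward and 12 downward, and the median, -0.05, was the same without H19. Between IGF2 and TSSC4, the differences were 0.04 for TH (tyrosine hydroxylase), -0.07 for ASCL2 (a transcription factor of intestinal stem cells and trophoblast), 0.08 for TSPAN32 and -0.20 for CD81, both tetraspanins. CD81 measured 11.19 and 10.93 against 10.95 and 10.77, and the groups overlapped. Around KCNQ1, they were 0.15 for the taste cation channel TRPM5 and -0.08 for the noncoding KCNQ1DN. Next to PHLDA2, they were 0.15 for the transporter gene SLC67A1 (formerly SLC22A18) and 0.01 for its antisense RNA SLC67A1-AS. At the centromeric edge, they were -0.03 for the nucleosome assembly gene NAP1L4, -0.24 for the cysteinyl-tRNA synthetase gene CARS1 and -0.15 for the lipid transfer gene OSBPL5. Adjusted p for the 17 rows other than H19 lay between 0.529 for the IGF2 row and 0.985 for SLC67A1-AS.

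The measured genes were also placed in RefSeq order along the chromosome. Of the 20 measured genes on each side of H19, 0 of 40 passed, 19 differences were above 0, 20 below it and 1 at 0. Their median difference was 0.00, with 0.04 on the telomeric and -0.02 on the centromeric side. The lowest was FAM99A, a noncoding RNA, at -0.37 and the highest IFITM10 at 0.32; FAM99A was picked out after its value was seen. The groups did not overlap for 14 of the 40, or 35%, against 40.6% of all rows. Levels were below 6.84 for 27 of the 40; how far such rows stood above background is unknown.

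**Figure D2:**
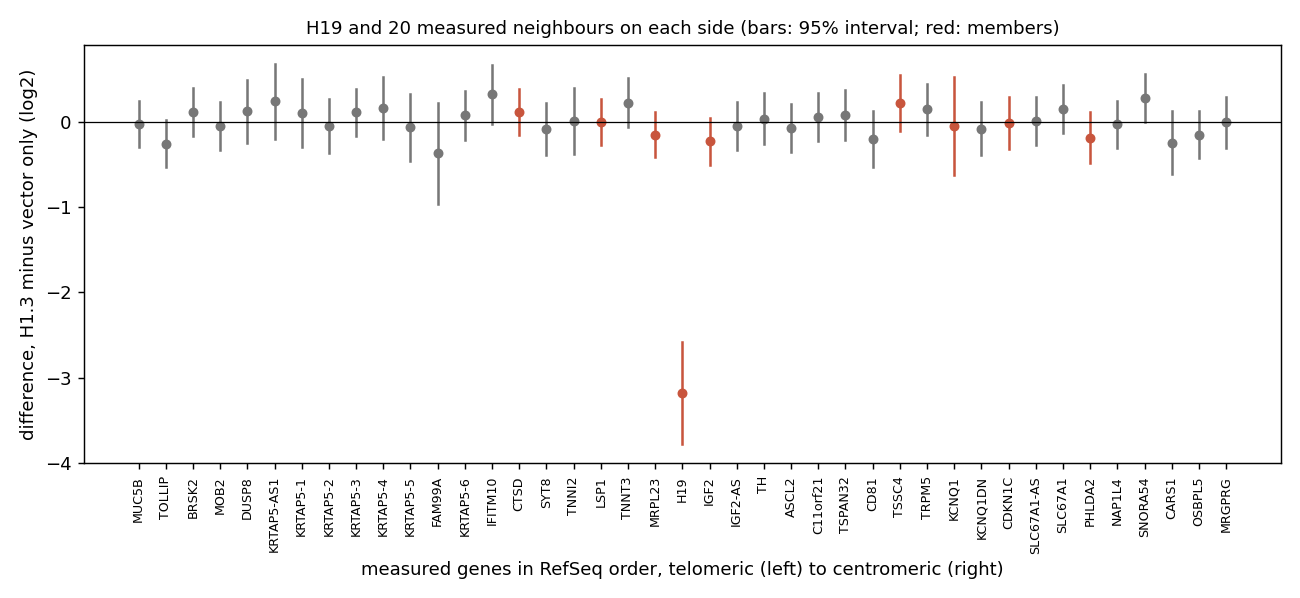
Difference between the H1.3 and vector-only arrays (log2, vertical axis) for H19 and the 20 measured genes on each side of it in RefSeq order, with the 95% interval of the limma fit as a bar and members in red. H19 stands at -3.18, and the 40 neighbours lie between -0.37 and 0.32.

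The flanks of the domain gave no calls either. Their lists reach farther out but repeat some of the neighbours above, so they are not separate evidence. On the telomeric side, 40 of 43 listed genes were measured, 20 above 0 and 20 below it. Their median was 0.00, with 0 calls in limma (1 at an unadjusted p under 0.05). LSP1 counts as below 0 through a row shared with its pseudogenes (-0.09), whereas its own row was at 0.00. The smallest p there belonged to CEND1, a neuronal cell-cycle exit gene (7.20 and 7.20 against 7.79 and 7.45, difference 0.42, adjusted p 0.310), and to IFITM10 (6.03 and 6.36 against 6.57 and 6.46, adjusted p 0.466). On the centromeric side, 11 of 12 genes were measured, with a median of 0.02 and 0 calls (1 at an unadjusted p under 0.05). The groups did not overlap for 54.5% of these centromeric rows and 37.5% of the telomeric ones, against 40.6% of all rows. STIM1, the calcium sensor of the endoplasmic reticulum, measured 7.95 and 8.15 against 8.54 and 8.58, a difference of 0.51 ± 0.12 (SE) that did not pass (adjusted p 0.150). TRIM21, a cytosolic antibody receptor and ubiquitin ligase, differed by 0.31 (adjusted p 0.447).

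Imprinted genes outside 11p15 were read from a list of 34 genes on 33 rows. None passed in limma, and 5 had an unadjusted p under 0.05, as did 2450 of all 21214 rows. Of the differences, 16 were positive, 16 negative and 1 at 0, with a median of 0.00. NAP1L5 measured 6.70 and 6.87 against 7.48 and 7.39, a difference of 0.65 ± 0.12 (SE; adjusted p 0.0922). CPA4, a carboxypeptidase gene, measured 5.09 and 5.22 against 5.55 and 6.04, a difference of 0.64 ± 0.17 (SE; adjusted p 0.190). MEST, a paternally expressed gene of the embryonic mesoderm named after its value was seen, measured 10.42 and 10.41 against 9.90 and 10.06 (adjusted p 0.194). GRB10, also named after its value was seen, had the largest difference of the list, -0.695 (adjusted p 0.319). It measured 7.49 and 8.05 against 6.78 and 7.37. The groups did not overlap for 11 of the 33 rows, or 33.3%, against 40.6% of all rows.

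The factors that keep imprints and insulators in place were measured on 25 rows, of which 0 passed (2 at an unadjusted p under 0.05), with a median difference of -0.01. EED, a subunit of the Polycomb complex that methylates histone H3, measured 8.28 and 8.28 against 7.74 and 7.88 (difference -0.47, adjusted p 0.158). SMC1A, a cohesin subunit, measured 10.47 and 10.43 against 10.17 and 10.16 (difference -0.29, adjusted p 0.393). CTCF itself, named after its value was seen, measured 9.51 and 9.26 against 9.40 and 9.33 with overlapping groups, a difference of -0.02 ± 0.13 (SE; adjusted p 0.975).

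Proteins that bind or process H19 or IGF2 RNA, and the let-7 axis in which H19 is reported to act, gave 11 rows, 9 above 0 and 2 below it, with a median of 0.14 and 0 calls (1 at an unadjusted p under 0.05). IGF2BP1, an RNA-binding protein of IGF2 messenger RNA, measured 5.41 and 5.65 against 5.88 and 5.95 (difference 0.39, adjusted p 0.301). DICER1, the enzyme that releases mature microRNAs, differed by 0.21 (adjusted p 0.576). Of 7 reported targets of miR-675, 5 were above 0 and 2 below it, with a median of 0.09 and 0 calls (1 at an unadjusted p under 0.05). IGF1R, a receptor for IGF2 and 1 of these targets, measured 6.01 and 6.22 against 5.64 and 5.53, a difference of -0.53 ± 0.13 (SE; adjusted p 0.146), and TGFBI, a matrix protein, differed by 0.24 (adjusted p 0.557).

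IGF2 receptors, binding proteins and signalling genes were measured on 14 rows, 5 positive and 9 negative, with a median of -0.20. There were 0 calls in limma, and 5 rows had an unadjusted p under 0.05, as did 2450 of all 21214 rows. IGFBP2, which binds IGF2 outside the cell, measured 9.80 and 9.94 against 9.38 and 8.69, a difference of -0.84 ± 0.22 (SE; adjusted p 0.170). Both H1.3 arrays were lower, and they were 0.69 apart. IGF2R, the receptor that clears IGF2, measured 8.39 and 8.83 against 8.44 and 8.86 (adjusted p 0.967, named after its value was seen).

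**Figure D3:**
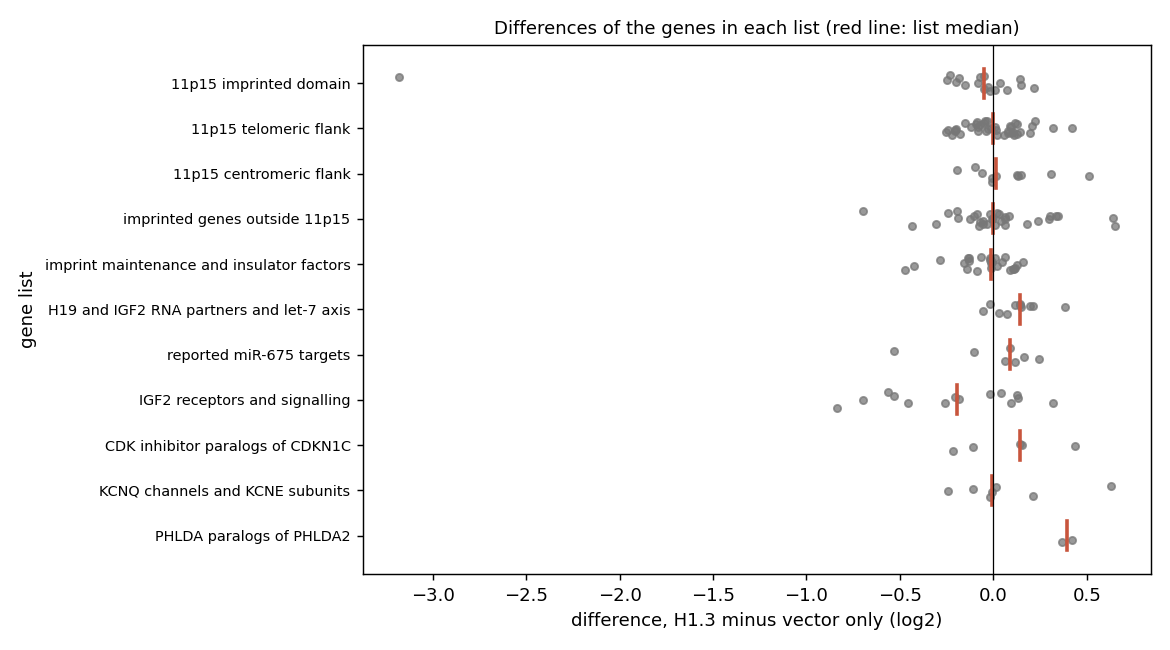
Difference between the H1.3 and vector-only arrays (log2, horizontal axis) for each measured gene of the 11 lists around H19, 1 grey point per row, with a red line at the list median. The single point far to the left, at -3.18, is the H19/RPS12 row, and the list medians run from -0.20 for IGF2 receptors and signalling to 0.40 for the 2 PHLDA genes.

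Paralogs of the members were compared in the same way. Among 5 measured CDK inhibitors related to CDKN1C, 0 passed; CDKN2B, which encodes p15, measured 7.70 and 8.08 against 8.20 and 8.45 (difference 0.43, adjusted p 0.367) and CDKN1A, which encodes p21, differed by -0.21 (adjusted p 0.641). Among 7 KCNQ channel and KCNE subunit genes, 0 passed; KCNQ3 measured 6.46 and 6.73 against 6.83 and 7.62 (difference 0.63, adjusted p 0.390) and KCNE4 differed by 0.21 (adjusted p 0.577). PHLDA1 and PHLDA3 differed by 0.37 and 0.42 (adjusted p 0.322 and 0.436), both above 0, where PHLDA2 was at -0.19. In each of these 3 families, 1 gene had an unadjusted p under 0.05.

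The rows most like H19 over the 4 arrays were sought among 18417 single-symbol genes, by the root mean square distance between levels centred on each row's own mean. The nearest was H3C11, a replication-dependent histone H3 gene, at a distance of 0.418, followed by IL12A (a subunit of interleukin 12) at 0.496, THSD4 (an extracellular matrix protein gene) at 0.587, PLIN2 (a lipid droplet coat protein) at 0.609 and SELENOP (a selenium carrier) at 0.630. H3C11 measured 9.52 and 9.11 against 5.28 and 5.47. SELENOP measured 8.82 and 8.42 against 6.67 and 6.64. Like H19, both H3C11 and SELENOP had a wider gap between the vector-only arrays than between the H1.3 arrays. IL12A, THSD4 and PLIN2 did not. Distances of the other 10 member rows from H19 ran from 1.51 to 1.74, farther than any of these 5 genes. Since the measure ranks rows by the size of their fall, it names other large falls, and with 4 arrays it carries no test.

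**Figure D4:**
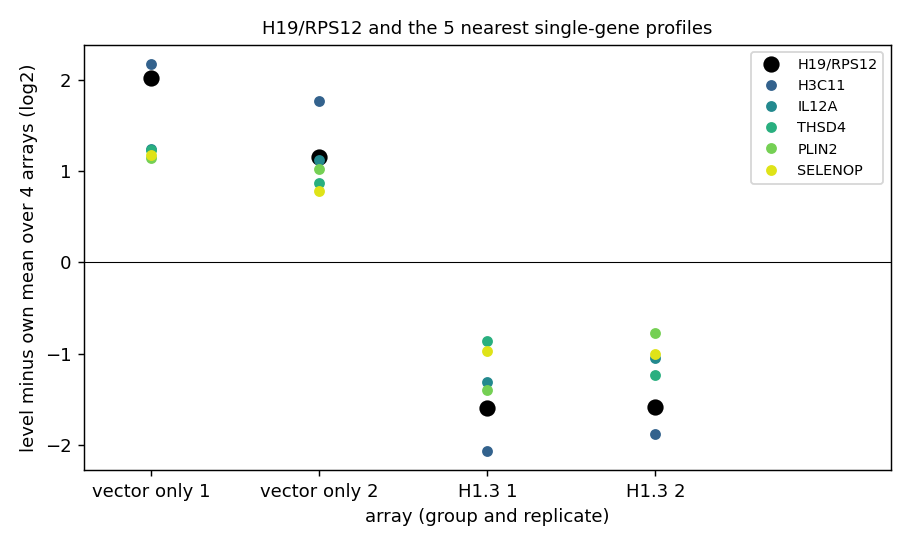
Level minus the row's own mean over the 4 arrays (log2, vertical axis) on each array for the H19/RPS12 row in black and the 5 single-symbol genes nearest to it in colour. H19 lies at 2.025 and 1.155 with vector alone and at -1.595 and -1.585 in the H1.3 arrays.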

How the data were processed

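The deposited table holds log2 values of 33297 transcript clusters on 4 arrays. Per the submitters' processing notes, the tools were RMA and Affymetrix Expression Console; versions and the genome build are not stated there. RMA subtracts background, brings the arrays to like distributions and summarises probes, so single probes and saturation were out of reach. In the series text the array is an exon array, but the row identifiers match a gene array's annotation. Names came from that annotation, updated by gene identifier to RefSeq (GRCh38.p14): 19460 rows have 1 symbol, 1754 several and 12083 none here.

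H1.3 was set against vector only in a two-sided limma fit (version 3.58.1, lmFit and eBayes, in R 4.3.3) over the 21214 named rows, with Benjamini-Hochberg adjustment and a threshold of 0.05; p-values in the text are these adjusted values unless another is named. The fit had 2 residual and 5.16 prior degrees of freedom, and 4 arrays limit its precision (median SE 0.13). A listed gene with several rows is represented by the row of highest mean, shared rows included. Named genes are all members, the whole 11p15 domain list, the passing members (otherwise the 2 of smallest p) of each other list, and the 5 nearest profiles; exceptions are marked. The members and lists were chosen with earlier results of these data known, so their directions are no independent support. Alternatives changed moderation, scaling, rows tested and the block, or left out each array. The steps were tested on simulated data. Figures used matplotlib 3.10.9 in Python 3.11.15.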

Additional observations from a re-analysis of the deposited data

How the results depend on the processing

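The H19/RPS12 difference, -3.18, kept its sign in all 11 refits and its call in 4 of them. The call was lost with all transcript clusters (-3.18, adjusted p 0.107), with no moderation (-3.18, 0.621), with a replicate block made of the replicate numbers (-3.18, 0.117), and whenever 1 array was left out (-3.615 to -2.745). The count of member rows called, 1, was 0 in these same settings, 0 to 0 on leaving out each array. Rows called higher and lower over the whole table (51 and 56) changed to 107 and 138 under a robust intensity trend, 6 and 3 with no moderation, 6 and 19 once rows under the median level were dropped, 1 and 3 when all transcript clusters were tested, 0 and 0 in limma with the replicate block (2195 had an unadjusted p under 0.05), and 0 to 0 for both on leaving out each array (1292 to 2367 at an unadjusted p under 0.05), where the spread of a lone array is taken from the other group. The cause of these shifts was not tested. The 10 other member rows were called in 0 of 107 refits, and 7 of these turned a sign: KCNQ1 (-0.45 to 0.35 in leave-one-out fits), CDKN1C (0.01 after a second quantile normalization, -0.14 to 0.11 in leave-one-out fits) and the second row shared by LSP1 and its pseudogenes (-0.24 to 0.29). The medians of the domain (-0.11 to 0.01) and of imprinted genes outside 11p15 (-0.04 to 0.01) moved by less than their SD between replicates, 0.118 and 0.113. The median of the telomeric flank (-0.04 to 0.06) moved by about as much as its SD of 0.0625. The replicate numbers were not used as pairs: no label ties same-numbered arrays to 1 batch, and the gaps between replicates correlated at only 0.06 across the 2 groups.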
